A study of Mus musculus with 40 samples.

Results

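The genes described are 10 cathepsins, Ctsa, Ctsb, Ctsc, Ctsd, Ctsf, Ctsh, Ctsk, Ctsl, Ctso and Ctsz, 10 of the 53863 gene symbols in the count table. They were taken by symbol, and the family was picked because Ctso and Ctsz had changed in opposite directions in brown fat, so the brown fat values of all 10 are given as a description without a test. All 10 passed the filter on low counts in each of the 4 tissues. Polyadenylated RNA was sequenced from wild-type adult mice of the strain C57BL/6 after 24 h in the cold (4 °C) or at thermoneutrality (30 °C). Interscapular brown fat (BAT), the white fat depots of the inguinal (iWAT) and epididymal (eWAT) regions, and liver each gave 5 cold and 5 thermoneutral libraries, 40 in all. The sources used here do not state the sex of the mice, although an epididymal depot is one of males. Whether tissues with one replicate number came from one mouse is not stated either, which bears on the tests across tissues. Each p-value sets a difference between groups against the spread between these samples.

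Cathepsins are proteases that work mainly in the acid interior of lysosomes, the organelles that digest proteins delivered by endocytosis and autophagy. They are made as inactive proenzymes, are tagged with mannose 6-phosphate and sorted to lysosomes by receptors, and become active at low pH, which the vacuolar proton ATPase maintains. Ctsd is an aspartic protease and Ctsa a serine carboxypeptidase. Ctsb, Ctsc, Ctsf, Ctsh, Ctsk, Ctsl, Ctso and Ctsz are cysteine proteases of the papain family, and cystatins inhibit many proteases of that family. Many lysosomal genes carry in their promoters a palindrome known as the CLEAR element, through which the transcription factor TFEB and its relatives act, and its core CACGTG is a common E-box.

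The promoters of 6 members are printed to show windows with and without that core: Ctsz and Ctso, the pair the family was picked on, hold none, and the other 4 members hold CACGTG. They are RefSeq sequences on GRCm38.p6, 250 bases before to 50 bases from the annotated start, read 5′ to 3′ on the strand of the gene. Capitals mark CACGTG, extended to TCACGTGA where the flanking bases match. Ctsz lies at chr2:174438990-174439289 on the minus strand, Ctso at chr3:81932351-81932650 on the plus strand, Ctsa (the second of its 2 starts) at chr2:164833523-164833822 on the plus strand, Ctsd at chr7:142387778-142388077 on the minus strand, Ctsl at chr13:64370471-64370770 on the minus strand and Ctsf at chr19:4854915-4855214 on the plus strand.
Ctsz: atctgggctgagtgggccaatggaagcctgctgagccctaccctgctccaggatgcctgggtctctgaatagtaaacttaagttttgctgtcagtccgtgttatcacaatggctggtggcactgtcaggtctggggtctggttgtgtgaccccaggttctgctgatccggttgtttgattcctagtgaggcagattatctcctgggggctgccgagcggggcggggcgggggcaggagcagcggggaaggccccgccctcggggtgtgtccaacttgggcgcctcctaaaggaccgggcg
Ctso: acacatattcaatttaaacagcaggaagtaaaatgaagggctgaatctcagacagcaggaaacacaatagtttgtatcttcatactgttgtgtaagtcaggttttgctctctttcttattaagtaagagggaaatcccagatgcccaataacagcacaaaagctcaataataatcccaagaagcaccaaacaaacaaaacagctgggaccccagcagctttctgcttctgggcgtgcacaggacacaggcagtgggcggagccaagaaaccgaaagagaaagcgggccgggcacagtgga
Ctsa: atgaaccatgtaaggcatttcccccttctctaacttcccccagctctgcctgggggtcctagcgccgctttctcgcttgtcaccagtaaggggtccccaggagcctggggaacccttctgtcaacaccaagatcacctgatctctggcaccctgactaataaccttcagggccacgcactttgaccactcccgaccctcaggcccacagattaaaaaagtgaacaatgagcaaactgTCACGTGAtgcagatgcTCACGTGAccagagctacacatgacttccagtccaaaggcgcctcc
Ctsd: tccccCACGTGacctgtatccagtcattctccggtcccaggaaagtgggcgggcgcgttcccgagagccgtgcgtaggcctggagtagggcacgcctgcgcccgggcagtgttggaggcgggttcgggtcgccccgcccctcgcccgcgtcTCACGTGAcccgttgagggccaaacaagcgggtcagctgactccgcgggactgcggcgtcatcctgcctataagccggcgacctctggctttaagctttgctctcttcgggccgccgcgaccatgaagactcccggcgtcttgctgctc
Ctsl: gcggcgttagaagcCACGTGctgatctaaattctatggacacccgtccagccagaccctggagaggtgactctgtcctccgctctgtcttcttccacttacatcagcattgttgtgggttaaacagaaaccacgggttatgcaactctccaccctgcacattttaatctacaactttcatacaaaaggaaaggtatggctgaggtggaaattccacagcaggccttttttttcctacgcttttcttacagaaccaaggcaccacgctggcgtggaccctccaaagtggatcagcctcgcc
Ctsf: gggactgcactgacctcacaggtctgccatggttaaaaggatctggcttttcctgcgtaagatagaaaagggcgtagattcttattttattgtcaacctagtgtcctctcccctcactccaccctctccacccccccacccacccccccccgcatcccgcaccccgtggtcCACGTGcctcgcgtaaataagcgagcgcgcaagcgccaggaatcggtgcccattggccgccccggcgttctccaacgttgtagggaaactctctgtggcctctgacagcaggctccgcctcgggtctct

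The promoter table held 8 of the 10 members, in 9 windows, without Ctsb and Ctsh. CACGTG, which reads the same on both strands, stood in 4 of the 8 (Ctsa, Ctsd, Ctsl and Ctsf), and in 8.09% of all 27025 genes with a window of this length (7.15% of 32851 windows). TCACGTGA, which contains CACGTG, stood in 2 of the 8, Ctsa with 2 copies and Ctsd with 1, against 1.12% of all genes. The full palindrome of the CLEAR element, which contains both shorter motifs, was in none of the 9 windows, against 0.37% of all genes. None of the 3 motifs stood in the windows of Ctsz, Ctso, Ctsk or Ctsc. A match is a match of letters only, and the absence of one says nothing about a factor outside these windows.

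Each level is given in CPM, computed on library sizes that TMM had adjusted within the tissue. Total counts ran from 46508261 to 86681722 per library. Adipoq, the adipocyte hormone, lay between 120.2 and 266 CPM in cold BAT and between 633 and 903 CPM in thermoneutral BAT. In the white fat libraries it lay between 1506 and 2800.4 CPM. Ucp1, the brown fat uncoupling protein, lay between 9853 and 13487 CPM in cold BAT and between 383 and 899 CPM in thermoneutral BAT. Alb, the liver's albumin, lay between 69800.3 and 96362 CPM in liver. A few libraries stood apart in markers of other cells, and values with and without them are given where those libraries are discussed: replicate 2 of cold BAT (12 macrophage markers summed to 409 CPM, against 73.1 to 117 CPM in the other cold BAT libraries), replicate 3 of cold iWAT (2843 CPM for macrophages and 10772 CPM for 8 fibroblast markers, the highest of that tissue) and replicate 1 of thermoneutral iWAT (2069 CPM for 14 lymphocyte markers). Markers of other tissues varied widely too. In iWAT 7 skeletal muscle markers summed to 2.68 to 2934 CPM in the cold and 3.98 to 13600 CPM at thermoneutrality. The medians were 34.0 and 64.0 CPM. In BAT these sums were 4.48 to 2676 CPM in the cold and 119 to 3469 CPM at thermoneutrality. Alb reached 660 CPM in cold and 2196 CPM in thermoneutral eWAT (medians 62.5 and 79.5 CPM). The part of these tissues in the values was not tested. In replicate 3 of cold liver 21.9% of counts came from mitochondrial transcripts, against 5.13% to 8.60% in the other liver libraries. Where a symbol was listed several times, the 5 thermoneutral liver columns repeated in another order than the other 35, as after a join of separate tables. Whether those 5 libraries were processed apart is not given in the sources used here, and in liver such a difference cannot be told apart from the exposure. Because the kit does not keep the strand, reads in exons shared with genes on the other strand cannot be assigned. This concerns Ctsb (774 bases shared with Fdft1), Ctsa (495 bases with Pltp and 324 with Neurl2), Ctsl (1742 bases with Gm47123, which had almost no counts) and Ctsz (10 bases with Nelfcd). On its own strand Ctsd shares 808 bases with Gm49369.

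**Figure D1:**
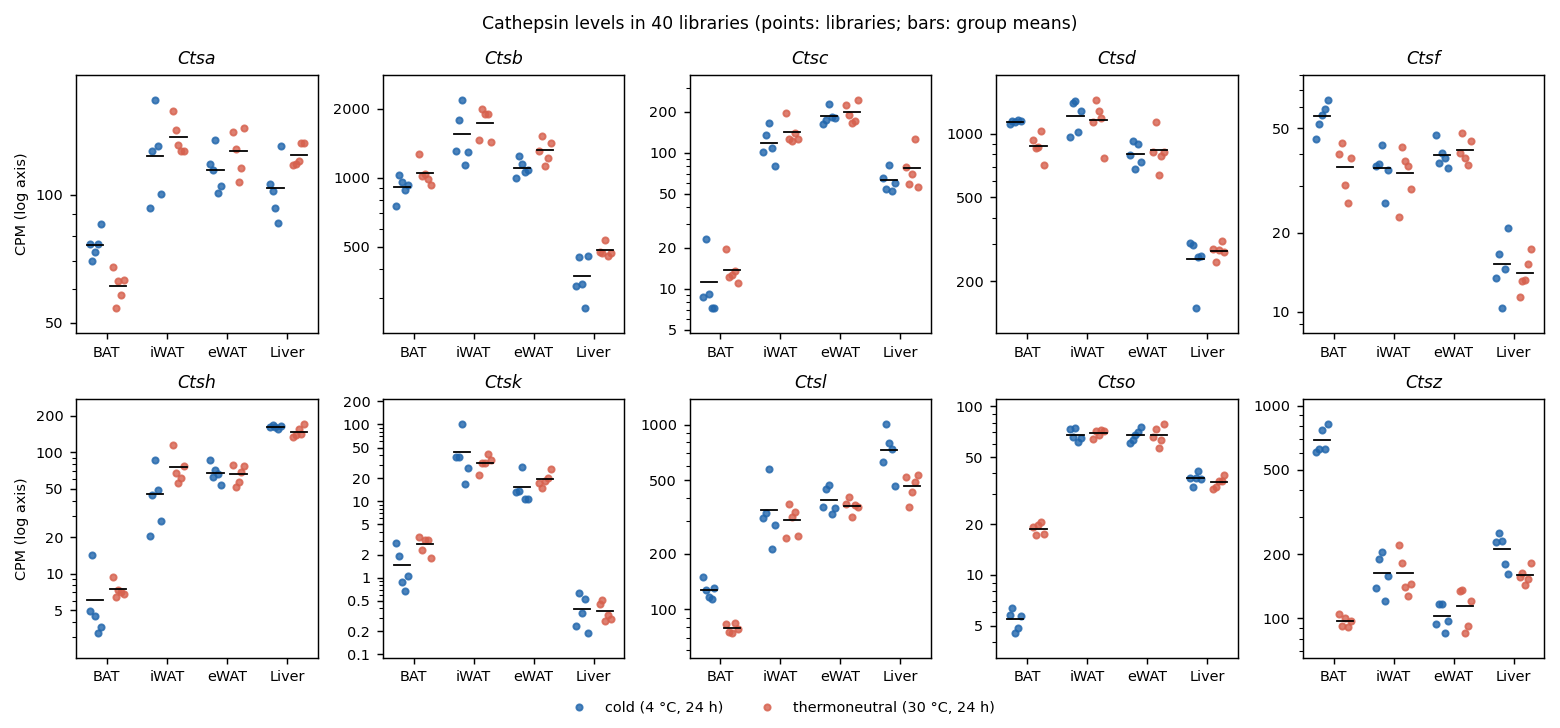
Level of each cathepsin in the 40 libraries, in CPM on log axes that differ between panels, with cold (blue) left of thermoneutral (red) in each tissue. Points are libraries and bars are means of 5. In BAT the points of Ctsz separate upward in the cold (607 to 818 CPM, against 90.8 to 105 CPM at thermoneutrality) and those of Ctso downward (4.55 to 6.38 CPM, against 17.2 to 20.6 CPM). In iWAT, eWAT and liver the groups of every member overlap.

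In BAT the cathepsins moved apart. Ctsz, a carboxypeptidase that removes single residues from protein ends and is also called cathepsin X, was 7.07-fold higher in the cold and became one of the leading transcripts of the family. Ctso, a little-studied member of the papain family, was 3.45-fold lower. Ctsl, Ctsf, Ctsd and Ctsa were higher by 1.25-fold to 1.61-fold, and Ctsb, Ctsc, Ctsh and Ctsk were lower on average with overlapping groups. Of the 10 members 6 had groups that did not overlap. Genes are named called where the Benjamini-Hochberg adjusted p was under 0.05. Among the 15288 genes tested in that tissue, 60.2% passed this threshold (30.2% higher and 30% lower in the cold), and 46.4% had groups that did not overlap. The family was picked on this contrast, so nothing is read from the members' count.

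Ctsz had 607, 626, 769, 623 and 818 CPM in cold BAT, against 105, 92.5, 100.5, 90.8 and 97.5 CPM in thermoneutral BAT. Every cold library lay above every thermoneutral one, and the log2 change was 2.82 ± 0.11 (SE of the fit). Ctso had 5.79, 6.38, 4.55, 4.84 and 5.71 CPM in cold BAT, against 19.2, 17.2, 19.7, 20.6 and 17.5 CPM in thermoneutral BAT. Every cold library lay below every thermoneutral one (log2 change -1.79 ± 0.10). Leaving out any single library kept the log2 change of Ctsz between 2.78 and 2.89 and that of Ctso between -1.82 and -1.70.

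Ctsl, a strong endopeptidase, had 149, 126, 116, 114 and 130.1 CPM in cold BAT, against 83.3, 75.1, 74.6, 84.0 and 78.1 CPM in thermoneutral BAT (log2 change 0.68 ± 0.08). Ctsf, whose propeptide carries a cystatin-like domain, had 45.7, 51.9, 56.1, 59.2 and 64.3 CPM in cold BAT, against 39.98, 43.8, 30.3, 26.0 and 38.5 CPM (0.63 ± 0.14). In both genes the groups did not overlap, although for Ctsf the lowest cold and the highest thermoneutral library lay close together. Ctsd, the main aspartic protease of lysosomes, had 1108, 1147, 1136, 1167 and 1154 CPM in cold BAT, against 932, 856, 865, 1030.0 and 710.1 CPM (0.38 ± 0.10). The 5 cold libraries of Ctsd were closer to each other (SD 22.0 CPM) than the 5 thermoneutral ones (SD 117 CPM). Ctsa, a carboxypeptidase that also stabilises beta-galactosidase and neuraminidase in the lysosome, had 76.7, 69.8, 73.2, 76.4 and 85.5 CPM in cold BAT, against 67.5, 54.2, 62.8, 58.0 and 63.1 CPM (0.32 ± 0.08). Its lowest cold library was just above its highest thermoneutral one.

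Among the 4 members with overlapping groups in BAT, 1 cold library set the spread of 2. Ctsc, which activates serine proteases of immune cell granules, had 8.69, 23.3, 9.22, 7.25 and 7.30 CPM in cold BAT, against 19.7, 12.2, 12.7, 13.6 and 10.97 CPM in thermoneutral BAT (log2 change -0.31 ± 0.33). Ctsh, an aminopeptidase, had 4.92, 14.2, 4.45, 3.27 and 3.67 CPM in cold BAT, against 9.45, 6.48, 7.27, 7.13 and 6.76 CPM (-0.28 ± 0.38). In both genes replicate 2 was the highest cold library and the other 4 lay below every thermoneutral one. Without that library the log2 change was -0.74 for Ctsc and -0.83 for Ctsh. That library was also the one with the high macrophage markers, and it held 45.4 CPM of Ctss, the cathepsin of antigen-presenting cells, which had as little as 3.92 CPM in the cold group and 11.6 to 17.1 CPM in the thermoneutral group. Over all libraries 2 of the 12 macrophage markers were called higher and 0 lower in cold BAT, beside 30.2% higher and 30% lower among all genes tested. Their sum ran from 73.1 to 409 CPM in the cold and from 149.6 to 208 CPM at thermoneutrality, and none was at 0. All cold sums but that of replicate 2 lay below every thermoneutral one. The part of these cells in the values of Ctsc and Ctsh was not tested.

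Ctsk, a collagen-degrading protease best known from osteoclasts, had 2.80, 1.94, 0.869, 0.679 and 1.06 CPM in cold BAT, against 3.44, 2.28, 3.12, 3.14 and 1.79 CPM in thermoneutral BAT (log2 change -0.90 ± 0.37). The groups overlapped. Of the 8 fibroblast markers 6 were called lower and 0 higher in cold BAT, beside 30% lower and 30.2% higher among all genes tested. Their sums were 158 to 379 CPM in the cold and 396 to 969.6 CPM at thermoneutrality, and none was at 0. Other lists held lower markers too: 6 of 10 for adipocytes (2 higher), 4 of 7 for endothelial cells (3 higher) and 4 of 13 tested for lymphocytes (0 higher). The part of these cells in the value of Ctsk was not tested. In bulk tissue, fewer cells of a type and less RNA per cell cannot be told apart. Ctsb, an endopeptidase that also removes dipeptides from protein ends, had 755, 1026, 956, 881 and 927 CPM in cold BAT, against 1267, 1019.7, 1037, 993 and 927 CPM (-0.21 ± 0.11). Fdft1, an enzyme of cholesterol synthesis whose last exons overlap Ctsb on the other strand, had 25.6 ± 13.7 CPM in cold BAT and 127 ± 27.8 CPM in thermoneutral BAT (SD, n = 5 each).

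**Figure D2:**
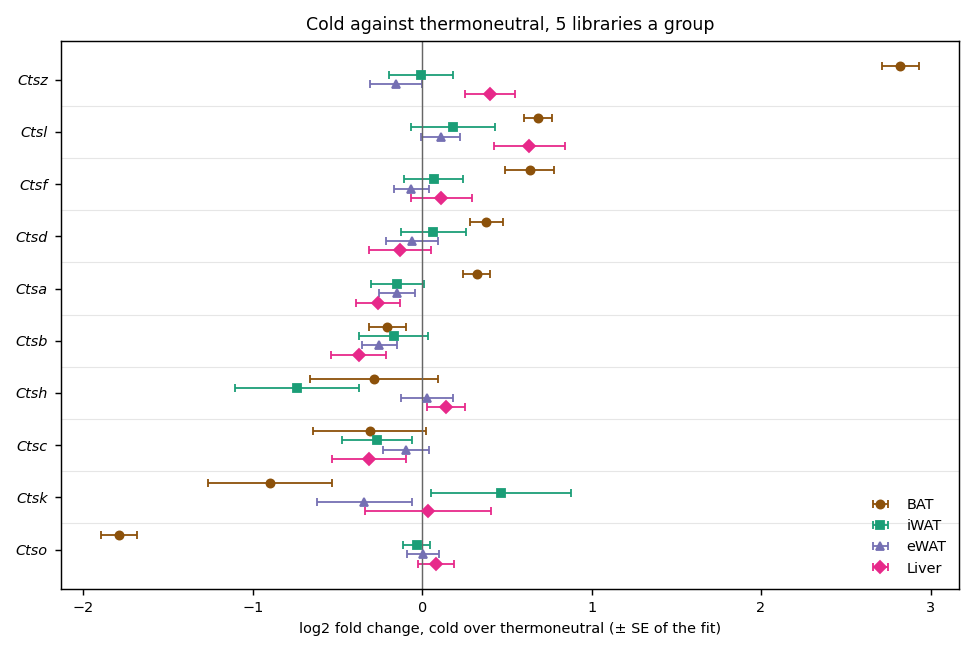
Log2 fold change of each cathepsin in cold over thermoneutral in the 4 tissues, with bars of 1 SE, genes ordered by their value in BAT. The BAT values span -1.79 (Ctso) to 2.82 (Ctsz), while those of the other tissues lie between -0.74 and 0.63.

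Per length of transcript, the make-up of the family in BAT changed with Ctsz. On the scale of CPM per kb of exon, Ctsz took 40.8 ± 3.15% of the sum over the 10 members in cold BAT, against 10.4 ± 1.12% in thermoneutral BAT (SD, n = 5 each). Ctsd took 41.8 ± 2.53% in the cold and 56.8 ± 3.29% at thermoneutrality, and Ctsb 12.9 ± 1.20% and 26.4 ± 2.03%. By each of 3 measures of length Ctsd ranked first in BAT, and Ctsz took place 2 in the cold and place 3 at thermoneutrality. Ctso took 0.0917 ± 0.0151% in cold BAT and 0.562 ± 0.0399% in thermoneutral BAT. The ratio of Ctsz to Ctso per length was 373, 349, 601, 458 and 509 in the cold BAT libraries, against 19.5, 19.2, 18.1, 15.7 and 19.8 in the thermoneutral ones. In the other tissues the ratio overlapped between the groups, with 6.71 to 10.3 in cold and 6.30 to 12.3 in thermoneutral iWAT, 4.34 to 6.53 in cold and 5.22 to 7.31 in thermoneutral eWAT, and 15.5 to 27.1 in cold and 14.2 to 17.5 in thermoneutral liver. The thermoneutral BAT ratios lay in the range of liver and above those of white fat.

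**Figure D3:**
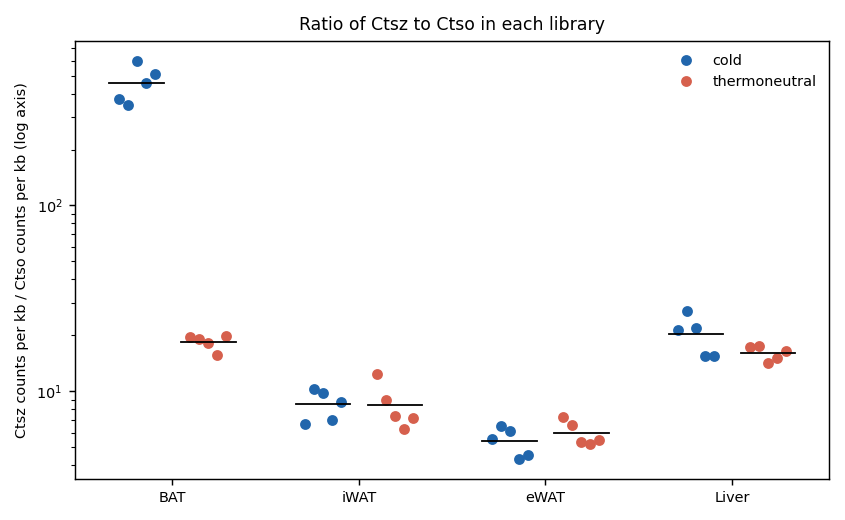
Ratio of Ctsz to Ctso in each library, both in counts per kb of exon, on a log axis, with cold left of thermoneutral in each tissue and bars at the mean of 5. The cold BAT libraries lie between 349 and 601 and those of thermoneutral BAT between 15.7 and 19.8, and every other library lies at 27.1 or lower.

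In iWAT, which browns in the cold, no change of a cathepsin was detected. Of the 10 members 0 were called by edgeR's quasi-likelihood test, 0 had an unadjusted p under 0.05, and DESeq2 and limma-voom called 0. Of all 16771 genes tested in iWAT 11.5% were called, and 29.1% had an unadjusted p under 0.05. Ctsz had 139, 190.0, 205, 120.2 and 159 CPM in cold iWAT, against 222, 182, 139.8, 128 and 145 CPM in thermoneutral iWAT, with a log2 change of -0.01 ± 0.19 and a 95% interval of -0.43 to 0.42. Ctso had 73.5, 65.4, 74.5, 61.3 and 64.5 CPM in cold iWAT, against 63.9, 71.7, 67.8, 72.0 and 71.6 CPM (-0.03 ± 0.08, interval -0.21 to 0.15). In both genes the groups lay over each other. None of the 10 members had groups that did not overlap, against 11.3% of all genes tested. The median log2 change of the 10 members was -0.02 in iWAT, against -0.05 over all genes.

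The widest values in iWAT were those of Ctsh and Ctsk. Ctsh had 20.3, 44.2, 86.7, 48.6 and 27.2 CPM in cold iWAT, against 116, 67.7, 56.1, 61.7 and 77.6 CPM in thermoneutral iWAT, with a log2 change of -0.74 ± 0.37 (adjusted p = 0.211 by edgeR's quasi-likelihood test). The groups overlapped through replicate 3 of the cold group, and without it the log2 change was -1.11 and the adjusted p = 0.0379, with adjusted p of 0.0379 to 0.412 over all settings run. Replicate 1 of the thermoneutral group, the library richest in lymphocyte markers, held the highest value, and without it the log2 change was -0.52 (adjusted p = 0.401). The same library was the highest in Ctsc, whose log2 change was -0.27 ± 0.20 with it and -0.11 without it (adjusted p = 0.402 and 0.743). Ctsk had 37.9, 37.9, 100.6, 16.8 and 27.3 CPM in cold iWAT, against 21.7, 31.0, 31.6, 41.2 and 34.0 CPM (0.47 ± 0.41, adjusted p = 0.469). Its mean was higher in the cold through the same replicate 3, without which the log2 change was -0.09. Of the 12 macrophage markers 1 was called higher and 0 lower in cold iWAT, beside 7.2% higher and 4.29% lower among all genes tested. Their sums were 668 to 2843 CPM in the cold and 1014 to 1813 CPM at thermoneutrality. Of the 8 fibroblast markers 0 were called (1 at an unadjusted p under 0.05), with sums of 1652 to 10772 CPM in the cold and 4954 to 7890 CPM at thermoneutrality. Of the 14 lymphocyte markers 0 were called (1 at an unadjusted p under 0.05), with sums of 27.8 to 982 CPM in the cold and 449 to 2069 CPM at thermoneutrality, and no marker of these 3 lists was at 0. Other lists held called markers too. For adipocytes 3 of 10 were higher and 0 lower, and for brown adipocytes 3 of 4 were higher and 0 lower. For hepatocytes 1 of 7 was higher and 0 lower, and for endothelial cells 1 of 7 was lower and 0 higher. The adipocyte sums were 37758 to 58954 CPM in the cold and 21053 to 34701 CPM at thermoneutrality. The part of these cells in the iWAT values was not tested.

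**Figure D4:**
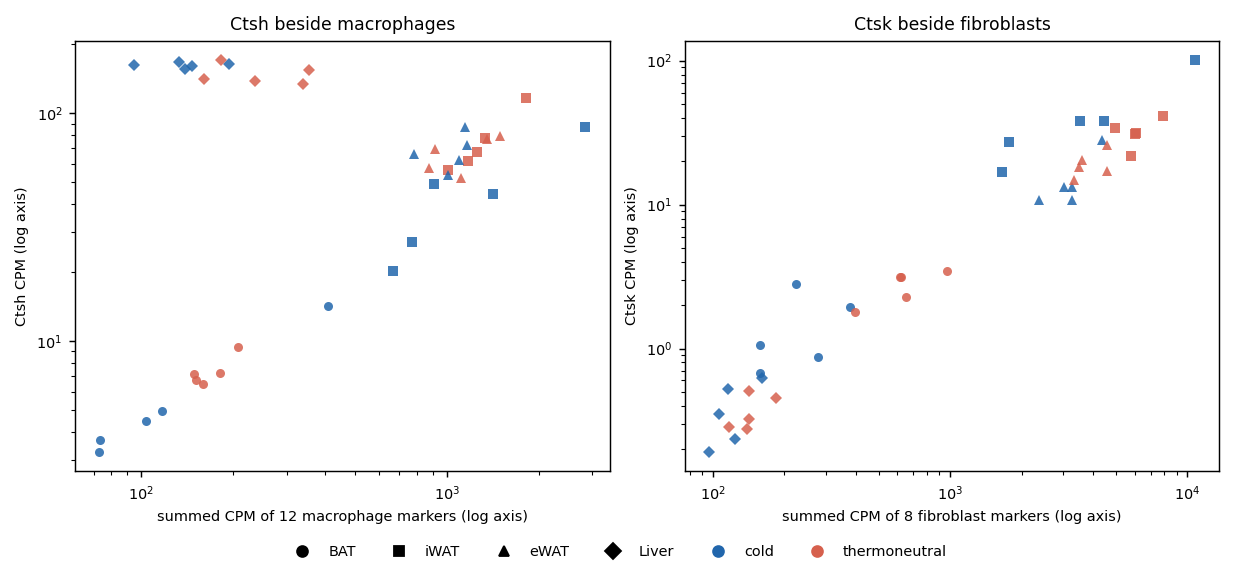
Level of Ctsh beside the summed level of 12 macrophage markers, and of Ctsk beside the summed level of 8 fibroblast markers, one point per library, all in CPM on log axes. Cold BAT replicate 2 lies at 409 and 14.2 CPM in the Ctsh panel and cold iWAT replicate 3 at 10772 and 100.6 CPM in the Ctsk panel. The 10 liver libraries lie apart in the Ctsh panel, at 134 CPM of Ctsh or more with macrophage sums of 355 CPM or less.

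In eWAT the values of the 2 groups lay close together. Of the 10 members 0 were called by edgeR's quasi-likelihood test and 1, Ctsb, had an unadjusted p under 0.05, while DESeq2 and limma-voom called 0. Of all 19123 genes tested in eWAT 3.78% were called, and 19.1% had an unadjusted p under 0.05. The groups of 7.5% of all genes did not overlap, and those of 0 members. Ctsb had 1001, 1250.2, 1151, 1057 and 1079 CPM in cold eWAT, against 1313, 1524, 1124, 1226 and 1425 CPM in thermoneutral eWAT, with a log2 change of -0.25 ± 0.10 (adjusted p = 0.218). Ctso averaged 67.5 ± 6.01 CPM in cold eWAT and 67.3 ± 8.40 CPM in thermoneutral eWAT (SD, n = 5 each), with an interval of the log2 change of -0.21 to 0.22. Ctsz averaged 102 ± 14.004 CPM in cold eWAT and 114 ± 23.7 CPM in thermoneutral eWAT, with an interval of -0.50 to 0.18. The log2 changes of the 10 members ran from -0.34 (Ctsk) to 0.11 (Ctsl), with a median of -0.08, against -0.05 over all genes tested. Ctsk had 13.3, 13.4, 28.0, 10.8 and 10.7 CPM in cold eWAT, against 17.1, 14.9, 18.3, 20.3 and 26.1 CPM in thermoneutral eWAT. Replicate 3 was the highest of all 10 and the other 4 cold libraries lay below every thermoneutral one, and without it the log2 change was -0.65 ± 0.18, in place of -0.34 ± 0.28, with an adjusted p of 0.0963, in place of 0.605. Of the 14 lymphocyte markers 2 were called lower and 0 higher in cold eWAT, and 11 had an unadjusted p under 0.05 (median log2 change -1.39). Their sums were 96.9 to 311 CPM in the cold and 370 to 685 CPM at thermoneutrality. Replicates 1 and 4 of the cold group held 3167 and 1338 CPM of 5 epididymis markers, against at most 59.1 CPM in any other eWAT library. Without replicate 1 the members' log2 changes ran from -0.28 (Ctsk) to 0.16 (Ctsl), without replicate 4 from -0.24 (Ctsk) to 0.17 (Ctsl), and 0 members were called either way. The part of these cells in the eWAT values was not tested.

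In liver Ctsl and Ctsz had the highest log2 changes of the 10 members, and neither passed the threshold. Ctsl had 624, 1004, 794, 735 and 465 CPM in cold liver, against 523, 357, 432, 487 and 535 CPM in thermoneutral liver. Only replicate 5 of the cold group lay among the thermoneutral libraries, and the log2 change was 0.63 ± 0.21 (interval 0.18 to 1.08, adjusted p = 0.0992 by edgeR's quasi-likelihood test). Ctsz had 228, 253, 232, 180.3 and 162 CPM in cold liver, against 157, 163, 144, 153 and 182 CPM in thermoneutral liver. Replicates 4 and 5 of the cold group lay at or under the highest thermoneutral library, and the log2 change was 0.40 ± 0.15 (interval 0.08 to 0.72, adjusted p = 0.128). Without replicate 5 of the cold group both passed, Ctsl at 0.76 (adjusted p = 0.0170) and Ctsz at 0.48 (adjusted p = 0.0347), and the genes called in liver numbered 2384 in place of 240. Over all settings run, the adjusted p ran from 0.0170 to 0.227 for Ctsl and from 0.0347 to 0.416 for Ctsz. DESeq2 on all 10 libraries called Ctsl (adjusted p = 0.0363) and no other member, among 1643 genes in all.

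Ctsb had 337, 449.5, 344, 271 and 458 CPM in cold liver, against 477, 471, 535, 456 and 472 CPM in thermoneutral liver. The 3 lowest cold libraries lay well under the thermoneutral ones, and the log2 change was -0.38 ± 0.16 (adjusted p = 0.180). By edgeR's quasi-likelihood test 0 of the 10 members were called in liver, and 3 (Ctsl, Ctsz and Ctsb) had an unadjusted p under 0.05. Limma-voom called 0 members and 1 gene in all. Of all 14472 genes tested in liver 1.66% were called, and 24.9% had an unadjusted p under 0.05. The groups of 5.44% of all genes did not overlap, and those of 0 members. Both groups of Ctso lay over each other, with 37.8, 33.2, 37.7, 41.3 and 37.1 CPM in cold liver, against 32.2, 33.2, 36.1, 36.2 and 39.3 CPM in thermoneutral liver (log2 change 0.08 ± 0.11, interval -0.15 to 0.31). Ctsd had 304, 297, 149, 261 and 263 CPM in cold liver and 283, 248, 282, 309 and 275 CPM in thermoneutral liver, and the low value of 149 CPM came from the library rich in mitochondrial transcripts. Markers of several other cell types had lower values in cold liver, few of them past the threshold. Of 7 endothelial and 7 tested fibroblast markers 0 were called (median log2 change -0.65 and -0.55). In each of these 2 lists 3 had an unadjusted p under 0.05, among them the fibroblast marker Pdgfra, which was higher (0.82). Of the 12 macrophage markers 0 were called and 9 had an unadjusted p under 0.05 (median log2 change -1.03), with sums of 94.9 to 195 CPM in the cold and 161 to 355 CPM at thermoneutrality. Of 4 markers of Kupffer cells, the macrophages resident in liver, 0 were called and 4 had an unadjusted p under 0.05 (median -1.14), with sums of 27.5 to 90.1 CPM in the cold and 57.0 to 156 CPM at thermoneutrality. Of 4 erythroid markers 0 were called and 4 had an unadjusted p under 0.05 (median -1.10), with sums of 158 to 296 CPM in the cold and 249.9 to 829 CPM at thermoneutrality. Of 11 tested lymphocyte markers 1 was called lower and all 11 had an unadjusted p under 0.05 (median -2.12), with sums of 4.26 to 14.6 CPM in the cold and 26.2 to 129 CPM at thermoneutrality. The part of these cells in the liver values was not tested.

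Whether the cold effect on a member differed between iWAT, eWAT and liver was tested by interaction contrasts over all 40 libraries. Of the 10 members 0 were called in each of the 3 contrasts by edgeR's quasi-likelihood test, against 0.159% of 20756 genes for eWAT minus iWAT, 6.35% for liver minus iWAT and 2.74% for liver minus eWAT. Limma-voom and a fit with a replicate block called 0 members as well. In the edgeR fit 1 unadjusted p was under 0.05, that of Ctsz for liver minus eWAT, a difference of log2 changes of 0.44 ± 0.21 (adjusted p = 0.298). By limma-voom it was instead Ctsh that had an unadjusted p under 0.05, for eWAT minus iWAT (0.88 ± 0.33, adjusted p = 0.281) and for liver minus iWAT (0.89 ± 0.33, adjusted p = 0.131). The fits without a block take the 40 libraries as independent, although 26 of 60 pairs of libraries with one exposure and number from 2 tissues correlated over 0.1. The differences from BAT were not tested, because the family was picked on the BAT contrast.

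Across tissues each cathepsin had its own profile, and the orders given here hold when library sizes are scaled by TMM within tissues or over all 40 libraries. Ctsz was highest in cold BAT of the 8 groups, and its lowest library there (607 CPM) lay above the highest library of any other group (253 CPM). Ctsf also averaged highest in cold BAT, at 55.4 ± 7.10 CPM. It averaged lowest in the 2 liver groups, at 15.2 ± 3.92 CPM in the cold and 14.1 ± 2.24 CPM at thermoneutrality. With TMM over all 40 libraries liver was lowest in its means only, because its Ctsf libraries overlapped those of white fat. On that scale they ran from 15.4 to 34.03 CPM in cold liver and from 16.8 to 31.5 CPM in thermoneutral iWAT. Ctsh was highest in liver, at 163 ± 4.398 CPM in the cold and 148 ± 15.03 CPM at thermoneutrality, and these 2 groups overlapped. Ctsl was highest in liver too, at 724 ± 200.3 CPM in the cold and 467 ± 73.4 CPM at thermoneutrality. BAT was lowest in Ctsc, Ctsh, Ctsl and Ctso. Ctsk was highest in iWAT, at 44.1 ± 32.8 CPM in the cold and 31.9 ± 7.002 CPM at thermoneutrality, and was close to absent in liver, at 0.385 ± 0.185 CPM in the cold and 0.370 ± 0.106 CPM at thermoneutrality.

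Over the 40 libraries, after subtracting the mean of each tissue, log2 CPM of Ctso and Ctsz had a Pearson correlation of -0.92. The points share libraries and tissues, and the BAT groups hold the largest differences, so the value describes the BAT contrast. Ctsc and Ctsh, the next most closely related pair by size, had 0.69. By the same measure among 16880 genes Ctso lay nearest to Erap1, an aminopeptidase of the endoplasmic reticulum (0.95), Vwa5a (0.93) and Slc16a7, a monocarboxylate transporter (0.92). Ctsz lay nearest to Pitpna, a phosphatidylinositol transfer protein (0.95), Rom1, a membrane protein of photoreceptors (0.95), and Olfr287, an olfactory receptor gene (0.94). In BAT Erap1 averaged 12.6 ± 2.09 CPM in the cold and 35.4 ± 1.76 CPM at thermoneutrality, and Pitpna 122 ± 7.14 CPM and 48.1 ± 1.34 CPM (SD, n = 5 each). These 6 genes were ranked on the data that hold the BAT contrast, and nothing further is read from their values.

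The other components of the lysosome were counted from lists. In BAT, 14 of the 17 genes of the vacuolar proton ATPase were called higher in the cold and 0 lower, with a median log2 change of 0.99, against -0.04 over all genes tested and 30.2% of all genes called higher. Atp6v0a2 had 172 ± 16.0 CPM in cold BAT and 44.0 ± 5.22 CPM in thermoneutral BAT (log2 change 1.97 ± 0.10), Atp6v1e1 changed by 1.39 ± 0.06 and Atp6v1d by 1.25 ± 0.08. Of 15 lysosomal membrane proteins 9 rose and 3 fell, led by Lamp1, a main glycoprotein of the lysosomal membrane, with 1108 ± 41.9 CPM in the cold and 386 ± 19.5 CPM at thermoneutrality (1.52 ± 0.07). Of 13 genes that sort lysosomal enzymes 8 rose and 0 fell. Scarb2, the receptor that carries glucocerebrosidase to lysosomes, had 326 ± 23.5 CPM in cold BAT and 78.9 ± 9.33 CPM in thermoneutral BAT (2.04 ± 0.10). Gnptg, a subunit of the enzyme that makes the mannose 6-phosphate tag, rose by 1.17 ± 0.09.

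Among the other hydrolases of BAT genes changed in both directions, beside 30.2% of all genes called higher and 30% lower. Of 6 other lysosomal peptidases 4 rose and 2 fell: Lgmn, an asparaginyl protease that processes cathepsins, rose by 1.08 ± 0.12 on the log2 scale, Tpp1 by 0.55 ± 0.07, and Cpq, a carboxypeptidase, had 11.7 ± 2.42 CPM in cold BAT and 33.8 ± 3.87 CPM in thermoneutral BAT (-1.53 ± 0.14). Of 31 glycosidases, sulfatases and lipases 14 rose, such as Gaa, which degrades glycogen in lysosomes (1.14 ± 0.09), and Galc (1.10 ± 0.09), and 10 fell, such as Ids, a sulfatase (-0.80 ± 0.07). In the list of inhibitors 5 genes were tested. Cst3, the secreted cystatin C, fell by 0.71 on the log2 scale (SE 0.14), with 302 ± 54.3 CPM in cold BAT and 494 ± 74.1 CPM in thermoneutral BAT. Kng2, a kininogen, rose by 0.61 ± 0.13. Fetub, whose action on cathepsins was not examined, fell by 1.98 (SE 0.30) at levels under 1.38 CPM. Of 5 tested hepatocyte markers 3 were called lower and 1 higher in cold BAT, and their part in the value of Fetub was not tested. Of 7 tested regulators of lysosomal genes 4 rose and 0 fell, with Tfeb at 19.6 ± 2.55 CPM in cold BAT and 13.8 ± 1.10 CPM in thermoneutral BAT (0.51 ± 0.10), Flcn, which restrains TFEB and TFE3, at 1.08 ± 0.16 and its partner Fnip1 at 1.28 ± 0.11. Of the 13 cathepsin symbols outside the family described here, Ctss and Ctsw were tested in BAT and 0 were called (0 at an unadjusted p under 0.05 by edgeR's quasi-likelihood test).

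In iWAT, where 7.2% of all genes were called higher and 4.29% lower, some of the same lists held called genes although no cathepsin did. The proton ATPase had 3 of 17 genes higher and 0 lower: Atp6v0a2 (0.72 ± 0.10, adjusted p = 0.00447 by edgeR's quasi-likelihood test), Atp6v0e (0.70 ± 0.14, adjusted p = 0.0133) and Atp6v0c (0.45 ± 0.10, adjusted p = 0.0222). Of the 15 membrane proteins 4 rose and 0 fell, led by Sidt2, with 198 ± 12.4 CPM in cold iWAT and 120.2 ± 9.24 CPM in thermoneutral iWAT (0.72 ± 0.09, adjusted p = 0.00221). Of the sorting genes Scarb2 rose (0.62 ± 0.12, adjusted p = 0.0111) and Gga2, an adaptor of the trans-Golgi network, fell (-0.77 ± 0.09, adjusted p = 0.00212). Of the 8 regulators 3 rose, Zkscan3, Flcn and Fnip1. Of the 31 glycosidases, sulfatases and lipases 3 rose (Galc, Pla2g15 and Neu1) and 1 fell. The 6 other peptidases, 7 tested inhibitors and 3 tested other cathepsins had 0 called genes (0, 1 and 0 at an unadjusted p under 0.05).

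In eWAT, where 1.77% of all genes were called higher and 2% lower, the lists held 4 called genes: Sidt2 (0.52 ± 0.10, adjusted p = 0.0206 by edgeR's quasi-likelihood test) and Zkscan3 (0.41 ± 0.09, adjusted p = 0.0341) rose, and Naglu, an enzyme of heparan sulfate degradation (-0.42 ± 0.06, adjusted p = 0.00959), and Gga1 (-0.27 ± 0.06, adjusted p = 0.0438) fell. In liver, where 1.01% were called higher and 0.65% lower, Gusb, the lysosomal beta-glucuronidase, was the 1 called gene of the 8 lists, with 32.3 ± 6.89 CPM in cold liver and 20.01 ± 0.497 CPM in thermoneutral liver (0.69 ± 0.15, adjusted p = 0.0472). Ctss was not called in liver and had 9.88 ± 2.26 CPM in cold liver and 19.8 ± 7.65 CPM in thermoneutral liver (-1.004 ± 0.260, adjusted p = 0.0636). The motif CACGTG, which 8.09% of all genes with a window held, stood in the promoters of 4 of 11 proton ATPase genes, 5 of 10 sorting genes, 3 of 13 membrane proteins, 2 of 5 other peptidases and 6 of 23 glycosidases, sulfatases and lipases, and in 1 of 11 other cathepsins, 0 of 7 inhibitors and 1 of 7 regulators.

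**Figure D5:**
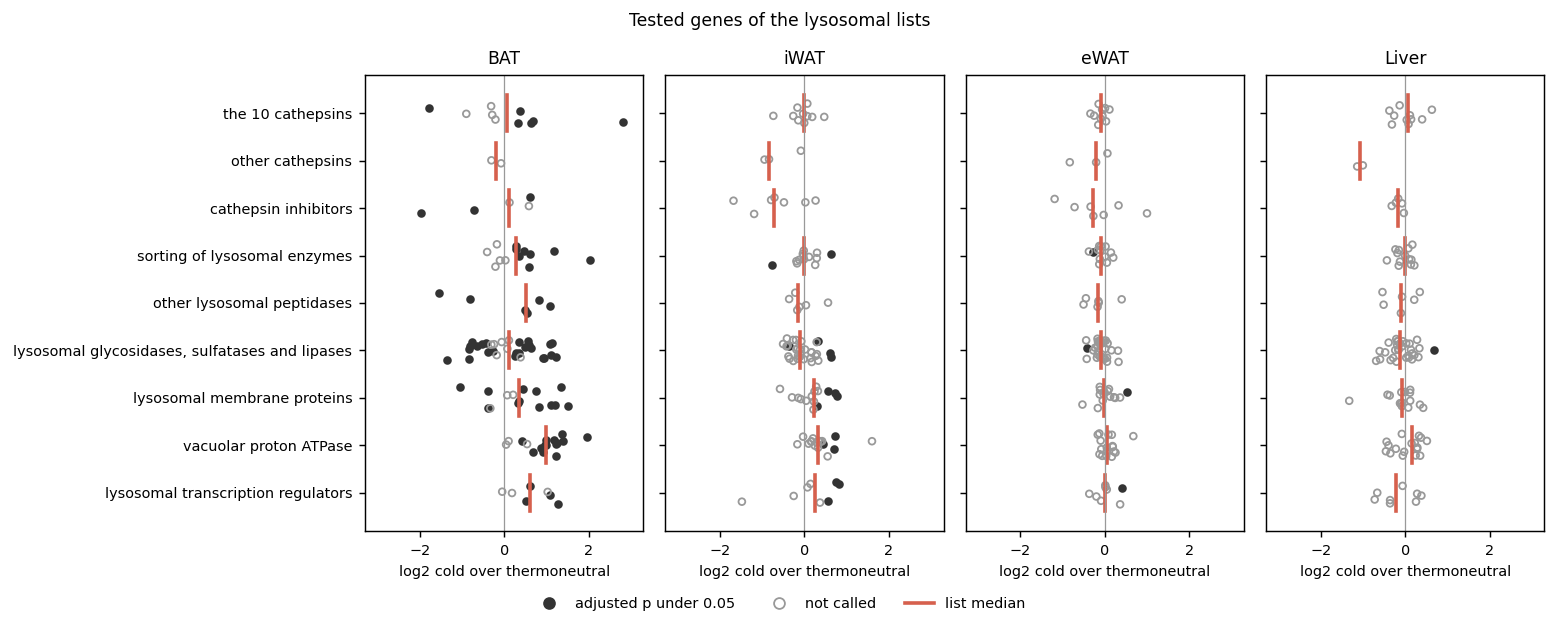
Log2 fold change in cold over thermoneutral of the tested genes of 8 lysosomal lists and of the 10 cathepsins in each tissue. Filled points have an adjusted p under 0.05, open points do not, and red bars are list medians. For the cathepsins in BAT the filling is not read as a test, because the family was picked on that contrast. In BAT the proton ATPase lies to the right (median 0.99) and the cathepsins spread to both sides.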

How the data were processed

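The deposited table holds expected counts per gene symbol without normalization, already whole numbers; per the submitters' processing notes the tools were DESeq, FastQC, RSEM 1.3.0 and STAR 2.7.8a. GRCm38 and GRCm39 are both named there as builds, with no role, and the annotation and strand setting are not given in the sources used here. The libraries were made with a TruSeq RNA v2 kit, per the labels' protocols. The table had 260093 lines, and each of 78 repeated symbols, listed n times n, was replaced by the total of its genes.

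The members, lists and tests were chosen with earlier results of these data known. Cold and thermoneutral libraries of a tissue, 10 in all, were compared in R 4.3.3 with edgeR 4.0.16 (robust quasi-likelihood F-test, TMM scaling, filterByExpr with a minimum count of 10 and a minimum total count of 15, Benjamini-Hochberg adjustment over all genes tested, threshold 0.05). Interactions came from a model of 8 group means over 40 libraries. Alternatives were DESeq2 1.42.0, its size factors in edgeR, limma-voom (limma 3.58.1), library totals, no filter, a replicate block, lymphocyte markers as a covariate in iWAT, and each library left out in turn. The fits were also run on counts simulated with dispersions estimated from these libraries. That simulation held no outlying library, so it does not bear on results that hang on 1 library. Genome positions and exon lengths came from GENCODE M21 (GRCm38) and promoters from RefSeq. Lengths were the union of exons, the longest transcript and, added after seeing the data, the APPRIS principal transcript; TMM over all 40 libraries was also added then, as was leaving out each library in the interactions. Named genes were the 10 members, the 3 genes nearest to Ctso and to Ctsz in correlation (prior count 2), and up to 3 genes of smallest p per list and tissue. Same-numbered cold and thermoneutral libraries did not deviate together, so replicate numbers were not used as pairs within a tissue; same-numbered libraries of different tissues did so in part, and the interactions were also fitted with exposure and number as a block.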

Additional observations from a re-analysis of the deposited data

Results flagged for a closer look

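In 8 of the 80 groups of 5 libraries (10 genes in 8 groups) 1 library lay apart from the other 4, with a gap to its neighbour over 0.71 of the whole range. For 5 independent values from a normal distribution, chance gives about 1 in 20 groups, or 4 here. Groups of different genes share libraries and CPM need not be normal, so 8 against 4 is not a test. Replicate 2 of cold BAT was the highest in Ctsc (23.3 CPM, with 7.25 to 9.22 CPM in the others) and in Ctsh (14.2 CPM, with 3.27 to 4.92 CPM in the others). Replicate 1 of thermoneutral BAT was the highest in Ctsh (9.45 CPM, with 6.48 to 7.27 CPM in the others). Replicate 1 of thermoneutral iWAT was the highest in Ctsc (195 CPM, with 121 to 140.4 CPM in the others), and replicate 3 of cold iWAT in Ctsk (100.6 CPM, with 16.8 to 37.9 CPM in the others). Replicate 3 of cold eWAT was the highest in Ctsk (28.0 CPM, with 10.7 to 13.4 CPM in the others). Replicate 3 of thermoneutral liver was the highest in Ctsb (535 CPM, with 456 to 477 CPM in the others), and replicate 3 of cold liver was the lowest in Ctsd (149 CPM, with 261 to 304 CPM in the others). No cause was tested.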

How the results depend on the processing

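Outside BAT, 443 of 490 values of the members' log2 changes under an alternative kept their direction and their side of the threshold, 43 turned their direction without passing it and 4 passed it. In BAT all kept their direction, and 8647 to 9554 of all genes tested passed the threshold with each library left out. Cathepsins called numbered 0 to 1 in iWAT, 0 in eWAT and 0 to 2 in liver with a library left out, and 1 in liver by DESeq2. All genes called numbered, with a library left out, 961 to 2652 in iWAT, 293 to 519 in eWAT and 0 to 2384 in liver. They numbered 3346, 2150 and 1643 by DESeq2 in iWAT, eWAT and liver, 1217 in iWAT and 372 in eWAT without a filter, and 16 by library totals and 1 by limma-voom in liver. With a replicate block they numbered 108 in iWAT, 22 in eWAT and 5 in liver, with 0 members called in these tissues; 3 of 20 same-number pairs of cold and thermoneutral libraries correlated over 0.1, and 2 of 20 libraries correlated best with their own number. Across tissues 26 of 60 same-number pairs of one exposure correlated over 0.1 (0.13 to 0.50 for the 5 pairs of thermoneutral iWAT and eWAT), and 24 of 60 correlated best with their own number. With exposure and number as a replicate block, 0 members were called in each interaction. Library totals moved the median of all genes to -0.16 in iWAT (against -0.05) and to -0.16 in liver (against 0.01), with 46.1% of iWAT calls higher in the cold (against 62.7%) and 31.2% of liver calls (against 60.8%). Under library totals the log2 change was -0.049 for Ctsd and -0.046 for Ctsf in iWAT, and -0.011 for Ctsf, -0.026 for Ctsh, -0.16 for Ctsk and -0.087 for Ctso in liver. With lymphocyte markers as a covariate it was -0.17 for Ctsf, -0.42 for Ctsk and -0.24 for Ctsl in iWAT. Ctsz in iWAT was at 0.018 with DESeq2's size factors and 0.018 by DESeq2, and Ctsk in liver at -0.092 by limma-voom and -0.025 with the replicate block. With a library left out, values ran in iWAT from -0.027 to 0.16 for Ctsd, -0.033 to 0.16 for Ctsf, -0.087 to 0.68 for Ctsk, -0.086 to 0.32 for Ctsl, -0.068 to 0.0098 for Ctso and -0.10 to 0.14 for Ctsz, in eWAT from -0.12 to 0.10 for Ctsd, -0.11 to 0.018 for Ctsf, -0.051 to 0.13 for Ctsh and -0.032 to 0.068 for Ctso, and in liver from -0.031 to 0.20 for Ctsf and -0.22 to 0.21 for Ctsk. The causes were not tested. Levels per length moved with the choice of transcript, most for Ctsl, which ranked first of the 10 in liver only with the principal transcript.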
